A study of Equus caballus with 4 samples.

Results

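The 48 genes described here encode the machinery of mitosis and chromosome segregation, and a gene was counted as measured when the gene name of a non-control probe on the array equalled its symbol, letter case ignored. Of the 48 genes, 41 had such a probe, 61 probes in all, out of 13349 named genes on the array. ASPM, CDC20, DLGAP5, KIF23, KIF4A, PLK1 and TOP2A had no probe under these names and were not analysed here. Each gene was represented by its brightest probe, and all 41 were among the 9058 named genes that passed the filter on dim probes, which asked for a signal well above background on all 4 arrays in at least 1 channel. CDCA8 passed it through the control channel, since its GO signal was well above background on 3 arrays, whereas the other members passed in both channels.

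The cells were equine satellite cells, the resident stem cells of skeletal muscle, isolated from the semitendinosus muscle of young colts and brought to the third day of differentiation in low-serum medium. Gamma-oryzanol (GO), a mixture of ferulic acid esters from rice bran oil, was given at 0.125 µM for the last 24 h in the treated group, and control cells received only the vehicle that both groups shared, DMSO at 0.04 µl/ml. On each of the 4 two-color arrays, RNA of GO-treated cells carried Cy5 and RNA of control cells Cy3, with no dye swap, so that dye bias of a probe and the response to GO cannot be told apart. The labels name the arrays biological replicates, but the methods select a culture with the best viability and fusion scores. For the arrays the paper kept the 4 RNA samples of highest integrity out of a larger set. Whether the arrays stand for several horses or several cultures of 1 line is not given in the sources used here. The p-values thus speak for these samples only. In limma they combine a probe's spread between the samples with a spread estimated over all tested probes. The SD printed beside a p-value is that of the samples alone.

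Mitosis is driven by cyclin-dependent kinase 1 bound to A- and B-type cyclins, which condenses the chromosomes and builds the spindle. The spindle checkpoint then withholds anaphase until every kinetochore, the protein plate on the centromere, is held by microtubules, after which cohesin is cut and the cell divides. Most of these genes are transcribed only in the late phases of the cell cycle, and myoblasts leave the cycle for good at the onset of differentiation. In a differentiating culture these transcripts would thus come mainly from cells that still divide, which were not counted here. In RNA from a whole culture, fewer dividing cells and less RNA per dividing cell cannot be told apart.

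The probes behind the results are 60-base oligonucleotides, and those shown here are the probe of CDK1, probes of 4 further genes that fell, the probe of MKI67, a gene known as a marker of dividing cells, and the overlapping probe pairs that let 1 transcript be measured more than once. All are printed 5′ to 3′ as the array files give them, with capitals marking the bases that 2 probes of a gene share.
CDK1: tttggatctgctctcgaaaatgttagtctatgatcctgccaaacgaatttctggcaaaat
CENPE: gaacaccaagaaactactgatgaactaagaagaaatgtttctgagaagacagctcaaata
NUSAP1: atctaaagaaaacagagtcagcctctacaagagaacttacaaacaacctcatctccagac
ANLN: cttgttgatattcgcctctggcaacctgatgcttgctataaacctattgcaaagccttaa
SMC2, second probe: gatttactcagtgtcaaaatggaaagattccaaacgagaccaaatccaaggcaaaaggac
MKI67: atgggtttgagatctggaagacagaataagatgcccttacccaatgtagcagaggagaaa
MAD2L1, second probe: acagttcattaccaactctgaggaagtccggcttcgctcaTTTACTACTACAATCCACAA
MAD2L1: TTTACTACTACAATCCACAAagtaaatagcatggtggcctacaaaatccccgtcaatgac
UBE2C, a second probe: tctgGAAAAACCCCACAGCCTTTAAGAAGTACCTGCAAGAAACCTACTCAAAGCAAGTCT
UBE2C: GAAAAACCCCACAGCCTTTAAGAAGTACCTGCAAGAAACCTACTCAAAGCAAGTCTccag

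In the coordinates of EquCab1 that the files carry, the CDK1 probe lies on the + strand of chr1:49550596-49553167, a stretch of 2572 bases for a probe of 60, so that it joins bases of separate exons. The CENPE probe lies at chr3:62538932-62538991, the NUSAP1 probe at chr1:144610582-144610641 and the second SMC2 probe at chr25:25443299-25443358, all on the - strand. The probes of ANLN (chr4:65475638-65475697), MKI67 (chr1:4739957-4740016) and MAD2L1 (chr2:93240957-93241016) lie on the + strand. The 2 UBE2C probes, on the + strand at chr22:34838647-34839188 and chr22:34838651-34839192, are offset by a few bases and share 56. Of the 61 probes, 13 in 9 genes spanned more genome than their own length. The brightest probes of the 41 members had a median GC content of 43.3% (range 35 to 55), near the median of 45% over all named genes tested.

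Every one of the 41 mitosis genes was lower in GO-treated than in control cells on arrays 3 and 4, while on arrays 1 and 2 they lay on both sides of 0. Values are log2 ratios of GO-treated over control signal, a negative value being lower with GO. The median over the members was -0.02 on array 1, 0.02 on array 2, -0.51 on array 3 and -0.48 on array 4. Over all named genes tested the corresponding medians were 0.02, -0.01, 0.01 and -0.01, so the arrays themselves were centred close to 0. Members below 0 numbered 22, 20, 41 and 41 of 41 on arrays 1 to 4, against 46.7%, 51.9%, 47.7% and 51.8% of all named genes. After normexp and loess the numbers were 20, 22, 41 and 41, and with median centring in place of lowess they were 25, 22, 41 and 41. Array 3 held the lowest ratio of 27 members and array 4 that of the other 14, whereas among all named genes each array held the lowest ratio of 20.6% to 28.9%.

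**Figure D1:**
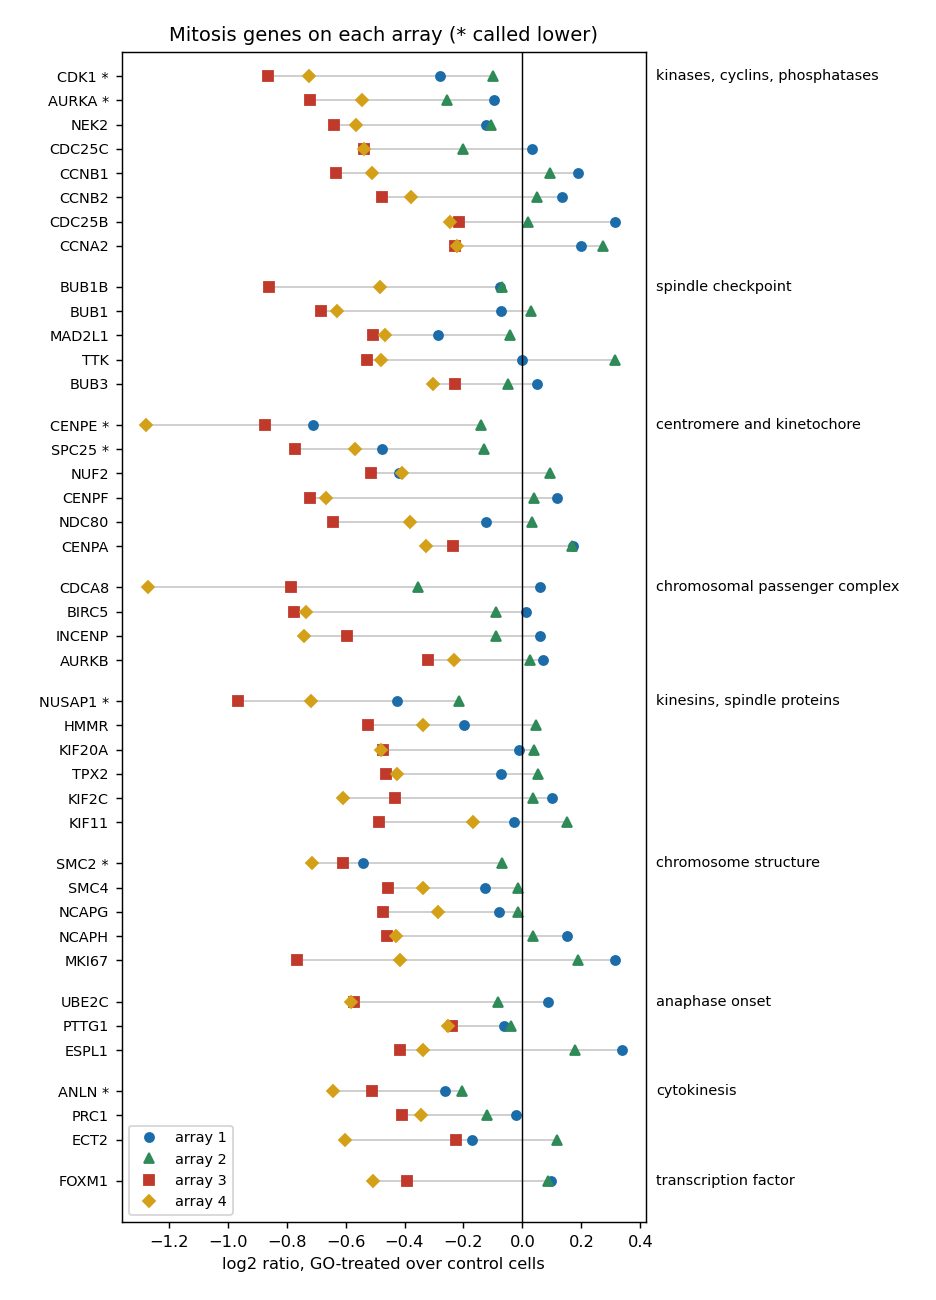
Log2 ratio (GO over control) for each of the 41 mitosis genes, grouped by role, with 1 symbol per array and the called genes starred. The symbols of arrays 3 and 4 lie left of 0 for all 41 genes, whereas 22 genes lie left of 0 on array 1 and 20 on array 2.

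Averaged over the 4 arrays, 7 of the 41 members fell with GO and 0 rose, where a gene was called at a Benjamini-Hochberg adjusted p up to 0.05 in limma and a fold change of at least 1.3. Over all named genes tested, 5.37% were called lower, 3.33% higher and 8.7% in either direction. The genes that fell were CENPE, NUSAP1, CDK1, SPC25, SMC2, ANLN and AURKA, and MAD2L1 passed the adjusted p but not the fold change. At an unadjusted p below 0.05 there were 21 members (51.2%), against 34.8% of all named genes tested. The 21 include CDCA8, which passed the filter through the control channel only, where it is higher. With a signal well above background required in both channels, the number was 20 of 40 members. The mean ratio was below 0 for 40 of 41 members, the exception being CCNA2, against 49.3% of all named genes, and 14 members (34.1%) were below 0 on all 4 arrays, against 21% of all named genes, 38.1% of the further mitosis genes outside the 48 and 39.1% of the anaphase-promoting complex and cohesin genes. The median of the members' mean ratios was -0.23, a fold of 1.18, with a SD of 0.287 among the 4 array medians, and that of all named genes was 0.00. Without array 3 and without array 4, 0 members passed both thresholds in limma, with 8 and 10 members at an unadjusted p below 0.05. Without array 1 the count was 4 (ANLN, AURKA, CDC25C and CDCA8, the last passing the filter through the control channel only). Without array 2 it was 5 (CENPE, NUF2, NUSAP1, SMC2 and SPC25). The count was 3 after normexp background correction with loess (CDK1, NUSAP1 and SPC25), and it was 0 under the ordinary one-sample test, without the filter on dim probes and without the array as a block, where 4, 8 and 4 members had an unadjusted p below 0.05.

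**Figure D2:**
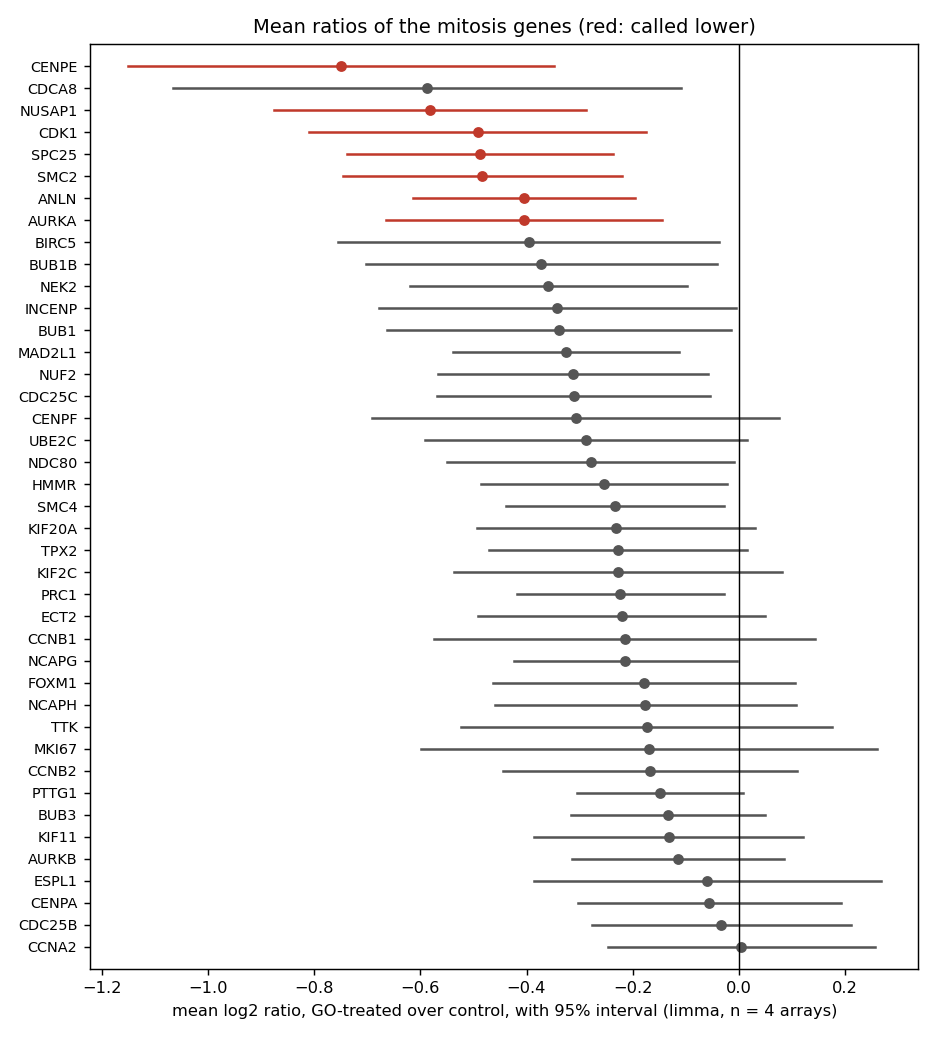
Mean log2 ratio of each mitosis gene over 4 arrays with its 95% confidence interval from limma, called genes in red. The means run from -0.75 for CENPE to 0.00 for CCNA2, and the interval of CDCA8 is as wide as -1.07 to -0.11.

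The members varied more between arrays than genes in general. The SD of the ratio among the 4 arrays had a median of 0.285 over members, from 0.113 for PTTG1 to 0.571 for CDCA8, compared with 0.15 over all named genes. The limma fit draws each variance toward a prior SD of 0.144. For a gene with a larger SD than that, the p-value rests on a smaller spread than the SD given. Across the 41 genes, the probe's GC content went with the ratio on array 1 (r = 0.57) but not on arrays 2, 3 and 4 (r = -0.06, 0.19 and -0.05), and over all named genes r was 0.31, -0.03, -0.01 and -0.16. These correlations are descriptions across genes, whose values share an array and its labelling, and the part of base composition in the ratios was not tested.

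**Figure D3:**
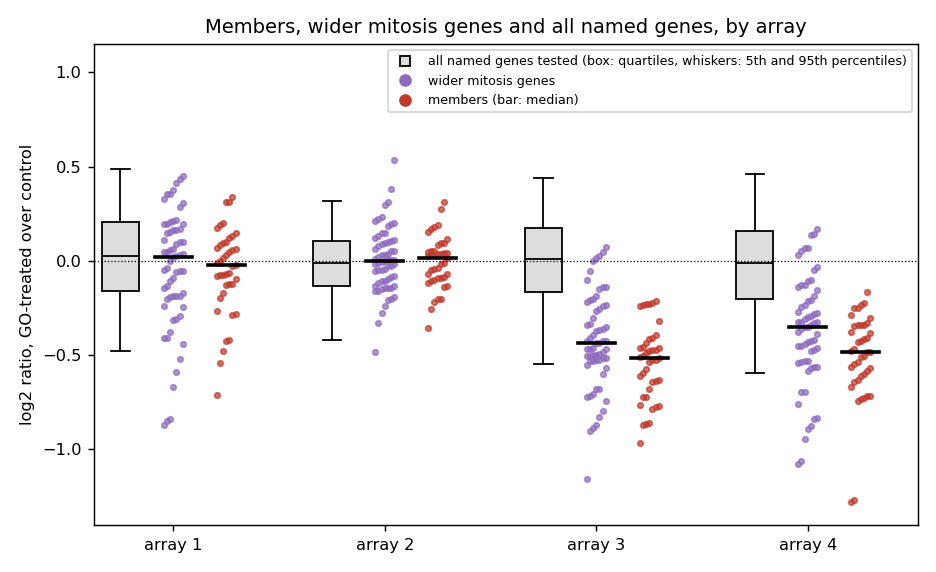
Log2 ratio (GO over control) by array, for the 41 members and 63 further mitosis genes as points with their medians as bars, and for 9058 named genes as a box of quartiles with whiskers at the 5th and 95th percentiles. On arrays 3 and 4 the member medians of -0.51 and -0.48 lie below the boxes, and on arrays 1 and 2 they lie near 0.

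Among the kinases, cyclins and phosphatases that start mitosis, CDK1 and AURKA fell, and the other 6 measured genes did not pass the test. CDK1, the catalytic kinase of mitotic entry, had ratios of -0.28, -0.10, -0.86 and -0.73 on arrays 1 to 4. All 4 arrays were below 0 and array 3 was the lowest, giving a mean of -0.49 ± 0.36 (SD, n = 4; adjusted p = 0.0479, limma). Its 2 probes gave -0.49 and -0.48 and were both called. AURKA, the kinase that matures the spindle poles, had ratios of -0.09, -0.26, -0.72 and -0.54, with a mean of -0.40 ± 0.28 (SD, n = 4; adjusted p = 0.0476, limma).

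The cyclins that bind CDK1 were not called. CCNB1, the main mitotic cyclin, had ratios of 0.19, 0.09, -0.63 and -0.51, above 0 on arrays 1 and 2 and below on arrays 3 and 4, with a mean of -0.22 ± 0.42 (SD, n = 4; adjusted p = 0.348, limma). CCNB2, its paralogue, followed with a mean of -0.17, and CCNA2, the cyclin of S phase and early mitosis, had a mean of 0.00 ± 0.27 (SD, n = 4) from 0.20, 0.27, -0.23 and -0.22. For CCNA2 the 95% interval of the mean ran from -0.25 to 0.26. The phosphatases that remove the inhibitory phosphates from CDK1 gave means of -0.03 for CDC25B and -0.31 for CDC25C. NEK2, a kinase that separates the centrosomes, was below 0 on all arrays with a mean of -0.36 ± 0.28 (SD, n = 4; adjusted p = 0.0658, limma).

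None of the 5 spindle checkpoint genes passed both thresholds, though all had means below 0. BUB1B, the BubR1 subunit of the checkpoint complex, had ratios of -0.08, -0.07, -0.86 and -0.48. Arrays 1 and 2 lay close to 0 and array 3 lowest, with a mean of -0.37 ± 0.38 (SD, n = 4; adjusted p = 0.108, limma). MAD2L1, which holds CDC20 inactive, had ratios of -0.29, -0.04, -0.51 and -0.47, a mean of -0.33 ± 0.21 (SD, n = 4; adjusted p = 0.0497, limma) and thus a fold of 1.25, below the threshold. Its second probe, which shares the 20 bases in capitals, gave -0.41 and was called. The kinases BUB1 and TTK had means of -0.34 and -0.17, and BUB3, which docks the complex on kinetochores, -0.13.

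At the centromere and kinetochore, CENPE and SPC25 fell among 6 genes. CENPE, the kinesin that carries chromosomes to the spindle equator, had ratios of -0.71, -0.14, -0.87 and -1.28. It was below 0 on all 4 arrays, with a mean of -0.75 ± 0.47 (SD, n = 4; adjusted p = 0.0293, limma), a fold of 1.68 lower. After normexp and loess its mean was -0.37 and it was no longer called (adjusted p = 0.0853, limma), and CDK1, SPC25 and NUSAP1 then had lower means than CENPE. SPC25, a subunit of the NDC80 complex that grips microtubules, had ratios of -0.48, -0.13, -0.77 and -0.57 with a mean of -0.49 ± 0.27 (SD, n = 4; adjusted p = 0.0264, limma), and both its overlapping probes were called.

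The remaining NDC80 complex genes on the array were not called, with means of -0.28 for NDC80 and -0.31 for NUF2. CENPF, a large kinetochore protein of late cell cycle phases, had a mean of -0.31 ± 0.45 (SD, n = 4; adjusted p = 0.218, limma). CENPA, the histone H3 variant that marks centromeres, had ratios of 0.17, 0.17, -0.24 and -0.33, above 0 on arrays 1 and 2 and below it on the others. Its mean was -0.06 (95% interval -0.30 to 0.19), and its second probe gave 0.09.

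The chromosomal passenger complex, which corrects wrong attachments and later directs cleavage, had 4 genes measured and 0 called in limma, with 3 of them at an unadjusted p below 0.05. AURKB, its kinase, had ratios of 0.07, 0.02, -0.32 and -0.23 and a mean of -0.11 ± 0.19 (SD, n = 4; adjusted p = 0.369, limma). CDCA8, which encodes borealin and passed the filter through the control channel, had ratios of 0.06, -0.36, -0.79 and -1.27. Its mean of -0.59 came with the widest spread of the members, a SD of 0.571, and an adjusted p of 0.0876 (limma), and after normexp and loess the mean was -0.29. INCENP, the scaffold, and BIRC5, which encodes survivin, had means of -0.34 and -0.40.

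Of 6 genes of kinesins and spindle microtubule proteins, NUSAP1 fell. NUSAP1, which bundles microtubules near chromatin, had ratios of -0.43, -0.22, -0.97 and -0.72, all below 0, with a mean of -0.58 ± 0.33 (SD, n = 4; adjusted p = 0.0253, limma), a fold of 1.5 lower. KIF11, the motor that pushes the spindle poles apart, had ratios of -0.03, 0.15, -0.49 and -0.17, a mean of -0.13 ± 0.27 (SD, n = 4; adjusted p = 0.412, limma). KIF2C, which depolymerizes microtubules, and KIF20A, a motor of the central spindle, had means of -0.23 each, as did TPX2, the activator of AURKA. HMMR, a spindle-pole protein, had a mean of -0.25.

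Among genes of chromosome structure, SMC2 fell. SMC2, a core ATPase of condensin, had ratios of -0.54, -0.07, -0.61 and -0.72, with array 2 nearest to 0 and a mean of -0.48 ± 0.29 (SD, n = 4; adjusted p = 0.0305, limma). Its second probe, printed above, gave -0.44 and was called. The other condensin subunits measured had means of -0.23 for SMC4, -0.21 for NCAPG and -0.18 for NCAPH, none of them called. MKI67, which coats mitotic chromosomes, had ratios of 0.31, 0.19, -0.76 and -0.42. Arrays 1 and 2 lay above 0 and arrays 3 and 4 below it, and its mean of -0.17 ± 0.51 (SD, n = 4; adjusted p = 0.543, limma) was smaller than its spread, and its second probe gave -0.23.

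The 3 genes of anaphase onset were not called. PTTG1, which encodes securin, the inhibitor of separase, had ratios of -0.06, -0.04, -0.24 and -0.25 and a mean of -0.15 ± 0.11 (SD, n = 4; adjusted p = 0.158, limma), the smallest spread of any member. Its second, overlapping probe gave 0.02, 0.14, -0.09 and -0.10, above 0 on arrays 1 and 2, with a mean of -0.01 (adjusted p = 0.941, limma). ESPL1, separase itself, went from 0.34 on array 1 to -0.41 on array 3 with a mean of -0.06. UBE2C, the ubiquitin-conjugating enzyme that works with the anaphase-promoting complex, had a mean of -0.29, and its 5 probes, which are shifted copies of 1 stretch and so not independent measurements, ran from -0.29 to -0.25.

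ANLN fell among the 3 cytokinesis genes. ANLN, the anillin scaffold of the cleavage furrow, had ratios of -0.26, -0.20, -0.51 and -0.64, the most even of the called genes, with a mean of -0.40 ± 0.21 (SD, n = 4; adjusted p = 0.0268, limma). PRC1, which crosslinks the central spindle, and ECT2, the exchange factor that activates RhoA at the furrow, had means of -0.22 each. FOXM1, the transcription factor that drives many of these genes, had ratios of 0.10, 0.09, -0.39 and -0.51 and a mean of -0.18 ± 0.32 (SD, n = 4; adjusted p = 0.325, limma).

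The 2 channels showed where the arrays parted. Levels here are log2 processed signals minus the median of all tested probes in that channel of that array, so they compare 1 gene between arrays. The control level of CDK1 was 2.63, 2.28, 3.73 and 3.55 on arrays 1 to 4, and its GO level 2.35, 2.18, 2.87 and 2.84. Arrays 3 and 4 were thus higher in both channels, and by more in the control channel. MKI67 had control levels of -0.27, -0.19, 1.07 and 0.75 and GO levels of 0.04, 0.01, 0.31 and 0.36. For CCNB1 the control levels were 2.09, 2.04, 3.25 and 3.14, and the GO levels 2.28, 2.13, 2.62 and 2.65. In both genes the GO cells of arrays 1 and 2 lay above their controls, and those of arrays 3 and 4 lay below theirs.

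Across the 41 members, the highest control level lay on array 3 for 25 genes, on array 4 for 15 and on array 2 for 1, CDC25B, whereas among all named genes the shares were 26%, 12.3% and 40.6%. The lowest control level lay on array 1 for 23 members and on array 2 for 18, against 31.8% and 31.7% of all named genes. The highest GO level lay on array 3 for 17 members and on array 4 for 19, against 25.4% and 25.2% of all named genes. The range of a member's level over the 4 arrays had a median of 1.07 in the control channel and 0.514 in the GO channel, and the control range was the wider for 41 of 41 members, against 61.4% of all named genes, for which the median ranges were 0.473 and 0.409.

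**Figure D4:**
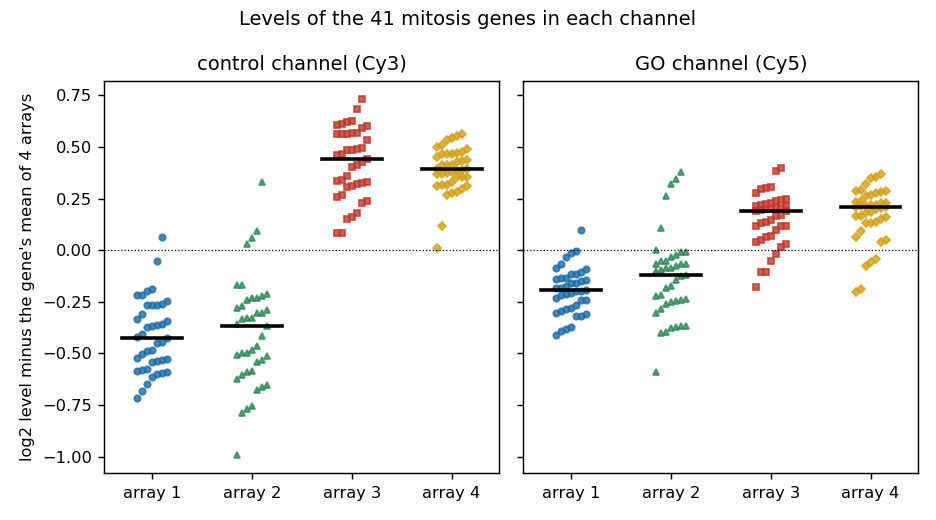
Log2 level of each of the 41 mitosis genes minus that gene's mean over 4 arrays, in the control channel and the GO channel, with the median as a bar. The control levels spread over the arrays with a median range of 1.07 per gene and the GO levels with 0.514, and both are higher on arrays 3 and 4 for most genes.

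Of 63 further mitosis genes tested, from a list of kinetochore, kinesin, condensin and cytokinesis genes outside the 48, those below 0 numbered 31, 32, 58 and 56 on arrays 1 to 4. Of 81 listed, 64 were on the array and 63 were tested. In limma 7 fell and 0 rose, where 5.37% of all named genes were called lower and 3.33% higher. An unadjusted p below 0.05 was reached by 24 (38.1%), near the 34.8% of all named genes. The 24 include DEPDC1 and SGOL1, which passed the filter through the control channel only, where they are higher. The 5 largest falls were those of DEPDC1B, a regulator of cell detachment at mitosis (-0.79), CENPQ, a constitutive centromere protein (-0.77), SGOL1, the shugoshin that protects centromeric cohesion (-0.65, passing the filter through the control channel only), KIF18A, a kinesin that damps chromosome movements (-0.52), and HMGB2, a chromatin protein (-0.51). The median of the list's mean ratios was -0.20, and by array it was 0.02, 0.00, -0.43 and -0.35. CENPQ was even across arrays, with -0.87, -0.49, -0.89 and -0.83.

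Genes that regulate or oppose this machinery were taken as separate lists. Of 23 tested genes of the anaphase-promoting complex and cohesin, 2 fell and 1 rose. Among all named genes tested, 5.37% were called lower and 3.33% higher. An unadjusted p below 0.05 (limma) was reached by 11 of the 23 (47.8%), against 34.8% of all named genes. The 11 include ESCO2, which passed the filter through the control channel only, and MAU2, which passed it through the GO channel only. The median mean ratio of the 23 genes was -0.07, with array medians of -0.09, -0.02, -0.10 and -0.06. RAD21, the cohesin subunit that separase cuts, had ratios of -0.37, -0.23, -0.66 and -0.57, and FBXO5, an inhibitor of the anaphase-promoting complex, -0.50, -0.17, -0.53 and -0.61. MAU2, a cohesin loader, rose with a mean of 1.23. Its control signal was well above background on 3 arrays, so it passed the filter only through the GO channel, where it is higher. Of 27 tested kinases and transcription regulators of mitotic entry, including the DREAM and E2F proteins, 0 were called in limma, against 8.7% of all named genes. At an unadjusted p below 0.05 were 4 (14.8%), against 34.8% of all named genes. The array medians of this list were 0.06, -0.01, -0.05 and -0.02. Whether these lists differ from the 41 members was not tested.

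The labelled cell type was checked with markers. Of 12 listed myogenic markers 8 were on the array, and PAX7, CDH15, ITGA7 and TNNT1 had no probe under these names and were not checked. All 8, ACTC1, MYH3, DES, CKM, NCAM1, MYOG, MYF5 and MYOD1, were well above background in both channels on all arrays. So were all 6 fibroblast markers on the array. Of 6 leukocyte markers, CD14 and CD68 were above background on all arrays and ITGAM, CD3E and CD79A on none, while no endothelial or adipocyte marker was on any. Of the 8 myogenic markers, 5 fell with GO (MYH3, DES, NCAM1, MYOG and MYF5) and 0 rose. Among all named genes tested, 5.37% were called lower and 3.33% higher. The log2 ratio of the summed signal of the 8 markers was -0.23, -0.44, -0.68 and -0.56 on arrays 1 to 4. The summed fibroblast signal had ratios of -0.07, -0.01, -0.15 and 0.07, with 1 marker, PDGFRA, higher. In the control channel the log2 level of the fibroblast sum was 9.68, 9.85, 10 and 9.47. That of the myogenic sum was 9.1, 9.5, 9.6 and 9.23. Probes differ in brightness, so these sums do not give the share of each cell type. The ratio of the myogenic sum was lowest on arrays 3 and 4, but the brightest markers, ACTC1 and MYH3, weigh most in it. Among single markers, ACTC1, DES, NCAM1 and MYOD1 were lowest on arrays 3 and 4, whereas MYH3, CKM, MYOG and MYF5 were not. MYF5 was even, with -0.97, -0.88, -0.96 and -0.90. The part of the myogenic markers in the ratios of the mitosis genes was not tested. The share of spots well above background ran from 63.5% to 68.9% in the control channel and from 57.35% to 67.0% in the GO channel, the lowest being array 4.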

How the data were processed

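RNA of GO-treated (Cy5) and control (Cy3) cells was hybridized on 4 two-color horse arrays, all on 1 slide, so a slide effect could not be separated. The deposited scanner files hold spot intensity values and log10 ratios that the authors made with Agilent Feature Extraction, which subtracted background and normalized the dyes by linear lowess; the files give version 10.10.1.1. The authors' value table held the same ratios for all 45220 spots of each array. No column of other samples was present. A spot with both signals near background is listed at a ratio of 0, which touched no member.

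Ratios were multiplied by 3.322 to give log2 values, control spots and outlier-flagged spots were left out, and repeated spots of 50 probes were averaged. Of 43603 probes, 26833 were well above background on all 4 arrays in at least 1 channel and were tested against 0 with limma 3.58.1 in R 4.3.3 (residual df 3, prior SD 0.144 on 3.6 prior df), which called 2399. Thresholds were an adjusted p of 0.05 (Benjamini-Hochberg over all tested probes) and a fold change of 1.3, the study's own. The paper does not name its test and reports far fewer transcripts at these thresholds. Its table of changed genes holds none of the members called here. Confidence intervals are at 95%. The number of arrays limits the precision. The fit was also run on simulated ratios for 26833 probes. These were drawn independently, with no effect shared by the genes of an array, so that run cannot test the calls among the members. Probe coordinates are those of the files (EquCab1). Plots were drawn with matplotlib 3.10.9.

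The array is the pair of its GO and control samples. Deviations from the channel means over 26833 probes correlated at 0.60, 0.86, 0.73 and 0.48 between the channels of arrays 1 to 4, and at -0.54 to 0.24 between channels of different arrays. Both channels of an array share its spots and hybridization, and deviations from a mean over 4 arrays lower the values between arrays. These correlations therefore cannot show whether the GO and control cultures were paired. Genes given with values on each array are those past both thresholds and a list that includes CDK1, CCNB1, AURKB, BUB1B, CENPA, KIF11, MKI67, FOXM1 and PTTG1, and up to 5 called genes a direction of other lists. Some further members are given by array to show the spread, chosen after their values were seen. The members and lists were chosen with earlier results of these data known. Alternatives were other background corrections, normalizations, filters, tests and probe choices, no block for the array, and leaving out each array.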

Additional observations from a re-analysis of the deposited data

How the results depend on the processing

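The median ratio of the 41 mitosis genes stayed below 0 under all alternatives run, from -0.336 without array 2 to -0.162 without array 3, and no member was called higher in any. The number called lower was less stable. From 7, it was 3 after normexp and loess and 5 with array weights, CDCA8 among the 5. It was 0 under the ordinary one-sample test, without a filter on dim probes and without the array as a block. The other settings that keep all arrays left it at 7. Leaving out 1 array gave 0 to 5.

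Over all probes, 2399 were called, against 1297 after normexp and loess, 147 under the ordinary one-sample test, 908 without a filter, 781 without the array as a block, 3306 without lowess and 1566 to 2430 with 1 array left out. The array pairs the channels, so the block stands in the reported fit, and the call of every member was lost without it. Of the further mitosis genes, the 7 called became 2 after normexp and loess, 12 without lowess, 0 under the ordinary test, 1 without a filter, 0 without the block and 2 to 9 with 1 array left out. Of the anaphase-promoting complex and cohesin genes, the 3 called became 0 under normexp and loess, the ordinary test, no filter and no block, and 1 to 4 with 1 array left out. The entry regulators kept 0 calls except 1 when probes of a gene were averaged. The cause of these changes was not tested.

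Ratios near 0 changed sign. CCNA2 was -0.018 after normexp and loess, -0.005 without lowess, and -0.085 to 0.083 with 1 array left out. With 1 array left out, CDC25B ran from -0.148 to 0.039, CENPA from -0.131 to 0.035, ESPL1 from -0.191 to 0.059 and MKI67 from -0.330 to 0.029, their values above 0 arising without array 3 or array 4. CENPA was 0.017 with its probes averaged. Scaling channel levels to the 75th percentile, an alternative chosen after seeing the data, moved the median range of member control levels from 1.07 to 1.03 and that of GO levels from 0.514 to 0.489.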
